A study of Mus musculus with 16 samples.

Results

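The 10 genes described here encode proteins of heart muscle: Myh6, Myh7, Myl7 and Myl4 of the myosin thick filament, Tnnt2, Tnni3 and Actc1 of the thin filament, the calcium pump regulator Sln, the oxygen-binding protein Mb, and the atrial hormone Nppa. They were chosen by name, and every probe set of the array whose gene symbol is among these names was taken. That gave 18 of 45101 probe sets, 16 with a single symbol and 2 shared by Myh6 and Myh7, and 10 of 18193 genes. RNA had been hybridised to Affymetrix mouse arrays from whole lung of C57BL/6J mice given dexamethasone, a synthetic glucocorticoid, or vehicle, and from whole cerebellum of mice given dexamethasone or vehicle. Each of these 4 groups held 4 arrays, and organs were taken at postnatal day 7. The sources used here do not give dose, schedule, sex, litter or how far heart and great vessels were trimmed from the lungs. The labels give the 4 arrays of a group as biological replicates, but do not say whether each came from a separate mouse. The tests below rest on array-to-array spread, which may be partly technical. In whole organs, fewer cells of a type and less RNA per cell cannot be told apart.

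The sarcomere is the contractile unit of striated muscle, in which myosin thick filaments pull on actin thin filaments when calcium binds to the troponin complex. Atrial muscle uses the light chains Myl7 and Myl4, ventricular muscle uses Myl2 and Myl3, and skeletal muscle has its own set of myosins and troponins. Lung holds little striated muscle, but in mice a sleeve of heart muscle surrounds the pulmonary veins and reaches into the lung, and atrial tissue lies at the lung root. Which of these gave the RNA measured here was not tested.

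The start sites of some of these genes carry short sequence motifs that muscle and other transcription factors are known to bind. The windows of 5 of the genes that were higher in treated lungs are shown to place those motifs. Each is the 250 bases before an annotated start, in RefSeq on GRCm38.p6, read 5′ to 3′ on the strand of the gene. For Tnnt2 and Myh7, which have 2 windows each, the window with more motif matches is shown, and the other held none. Capitals mark matches, on either strand, to the CArG box bound by SRF, the MEF2 site, the GATA motif (AGATAA or AGATAG, or else TGATAA or TGATAG), the MCAT motif (CATTCC) bound by TEAD factors, the NKX2-5 motif (TNAAGTG) and the glucocorticoid receptor half-site (AGAACA). No matches overlapped each other. The windows lie at chr1:135836084-135836333 (+) for Tnnt2, chr11:5898783-5899032 (-) for Myl7, chr2:114052876-114053125 (-) for Actc1, and chr14:54994627-54994876 (-) and chr14:54966608-54966857 (-) for the neighbouring genes Myh7 and Myh6.
Tnnt2: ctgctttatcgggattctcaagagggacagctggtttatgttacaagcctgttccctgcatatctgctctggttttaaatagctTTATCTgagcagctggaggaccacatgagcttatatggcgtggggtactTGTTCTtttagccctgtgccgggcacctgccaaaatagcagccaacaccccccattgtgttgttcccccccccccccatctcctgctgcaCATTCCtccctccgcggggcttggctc
Myl7: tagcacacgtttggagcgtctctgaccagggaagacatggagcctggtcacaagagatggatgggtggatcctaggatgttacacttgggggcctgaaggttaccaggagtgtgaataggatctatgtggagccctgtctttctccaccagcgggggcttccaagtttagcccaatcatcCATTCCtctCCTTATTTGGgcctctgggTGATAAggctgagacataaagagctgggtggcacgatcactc
Actc1: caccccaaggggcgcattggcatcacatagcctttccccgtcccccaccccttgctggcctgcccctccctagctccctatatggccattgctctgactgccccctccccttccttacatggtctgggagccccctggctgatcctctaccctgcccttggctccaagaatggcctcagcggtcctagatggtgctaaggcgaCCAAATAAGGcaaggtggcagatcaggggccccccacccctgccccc
Myh7: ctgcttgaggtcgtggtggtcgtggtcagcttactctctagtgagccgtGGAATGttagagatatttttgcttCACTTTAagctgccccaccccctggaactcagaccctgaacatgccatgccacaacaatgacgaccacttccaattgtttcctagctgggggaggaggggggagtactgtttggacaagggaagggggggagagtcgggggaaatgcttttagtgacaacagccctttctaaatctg
Myh6: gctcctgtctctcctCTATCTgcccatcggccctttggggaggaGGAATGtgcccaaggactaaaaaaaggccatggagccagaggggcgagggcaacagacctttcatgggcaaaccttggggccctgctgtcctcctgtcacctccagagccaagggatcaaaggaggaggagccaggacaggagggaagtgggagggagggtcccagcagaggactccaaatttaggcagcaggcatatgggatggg

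Of the 10 genes, 9 had a window in the table, with 1 to 3 windows each, and Sln had none. The Myl7 window held an MCAT motif at -70 to -65, a CArG box at -61 to -52 and a GATA motif at -42 to -37, counted back from the start. In Actc1 a CArG box lay at -47 to -38. A gene was counted if any of its windows held a match, while the background share is per single window, so the units differ. Among the 9 genes, 2 had a CArG box, against 1.47% of all 32851 windows of that length. An MCAT motif was found for 4 of 9 genes (12.6% of all windows), a GATA motif for 4 (26.5%), an NKX2-5 motif for 2 (10.1%) and a glucocorticoid half-site for 2, Myl4 and Tnnt2 (16.1%). The full glucocorticoid site, a pair of half-sites facing each other, and the MEF2 site were found for 0 of 9, against 0.00913% and 2.92% of all windows. Tnni3, which also rose in treated lungs, and Mb had windows without a match to any of these motifs. The matches describe letters in a window and show no binding.

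Levels were deposited on a log2 scale made with RMA, so a difference of 1 is a doubling, and each gene was read from the brightest of its probe sets by the mean of all 16 arrays. These were 1448826_at for Myh6, 1448553_at for Myh7, 1449071_at for Myl7, 1422580_at for Myl4, 1424967_x_at for Tnnt2, 1422536_at for Tnni3, 1415927_at for Actc1, 1420884_at for Sln, 1451203_at for Mb and 1456062_at for Nppa. RMA compresses differences near the floor, where 25% of genes had a group mean below 5.08 in dexamethasone lungs and below 4.97 in vehicle lungs. Differences were tested with limma over all 18193 genes with a single spread per gene shared by the 4 groups, and a gene was called at an adjusted p under 0.05 (Benjamini-Hochberg). Between the dexamethasone and vehicle lungs 31.2% of all genes were called, 15.7% higher and 15.5% lower, so a call is common in this comparison. Between the cerebella 4.8% were called.

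Cardiac muscle genes were plainly present in lung and near the floor in cerebellum. In vehicle mice 9 of 10 genes were higher in lung than in cerebellum, where 28% of all genes were called higher and 27.4% were higher without overlap, and the median log2 difference of the 10 was 3.28 against 0.00 for all genes. Myl7, the regulatory light chain of atrial myosin, averaged 10.40 ± 0.21 in vehicle lungs and 4.27 ± 0.22 in vehicle cerebella (SD, n = 4 each), a log2 difference of 6.12 ± 0.19 (SE, limma adjusted p = 2.47e-14). For Myh6 and Actc1, the alpha myosin heavy chain and the cardiac actin, the log2 differences were 4.50 and 4.49, and for Tnnt2, the troponin subunit that anchors the complex to tropomyosin, 4.06. The other called genes ran from 2.41 (Mb, and 1.32 with its probe sets averaged) to 3.34 (Myl4). No fold is given, since Myh6, Myl7, Tnnt2 and Tnni3 had cerebellar means below the lower quartile of all genes, where the signal may be background. Nppa was the exception, at 4.61 ± 0.13 in vehicle lungs and 4.51 ± 0.17 in vehicle cerebella, near the floor in both. In mice given dexamethasone, where 31.5% of all genes were called higher in lung, 9 of the 10 were higher, 8 of them without overlap (28.3% of all genes), and the log2 difference for Myl7 was 7.01.

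**Figure D1:**
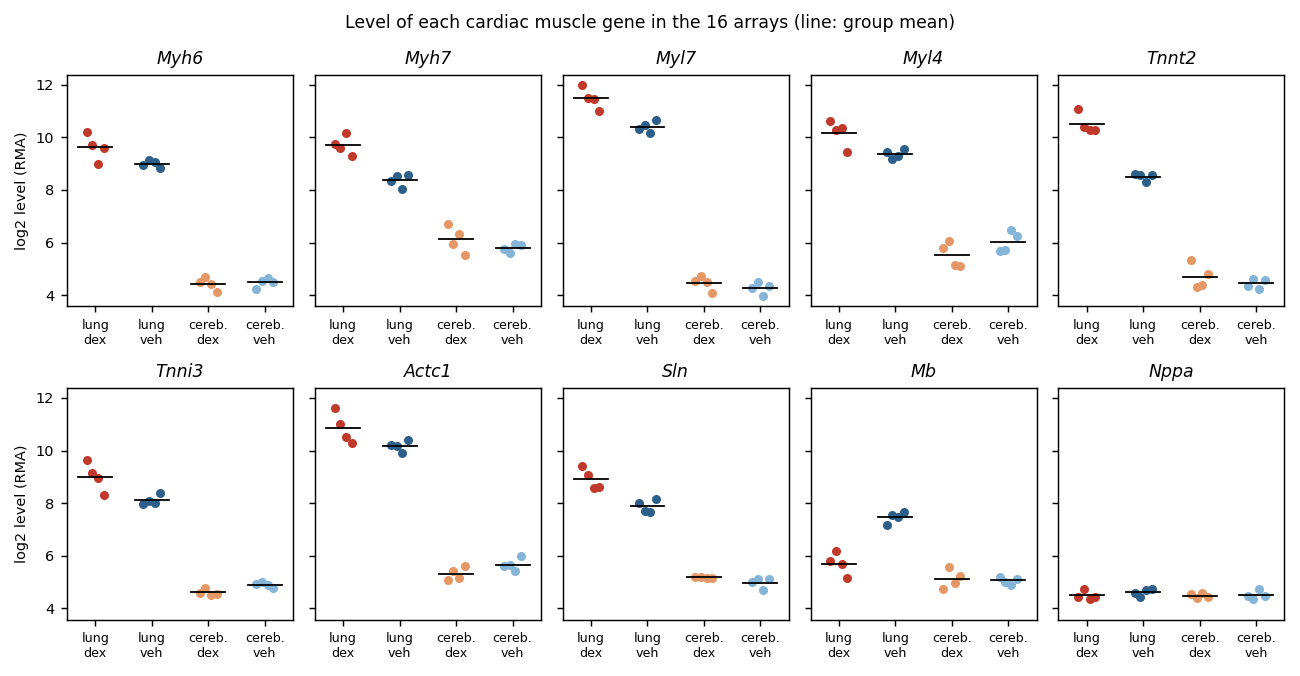
Log2 level (vertical axis) of each of the 10 cardiac muscle genes in lung and cerebellum of mice given dexamethasone (dex) or vehicle (veh); points are arrays, 4 per group, and lines are group means. In 8 genes the dexamethasone lungs have the highest mean, the Mb probe set shown is highest in vehicle lungs, and Nppa lies between 4.36 and 4.75 in all 16 arrays.

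Dexamethasone went with higher levels of most cardiac contractile genes in lung. Of the 10 genes, 8 rose, Mb was lower by 1 of its 2 probe sets, and Nppa was not called. Of all genes, 15.7% were called higher in this comparison and 15.5% lower. The median log2 change of the 10 was 0.84, against 0.05 for all genes. The 8 rises ran from 1.56-fold (Myh6) to 3.98-fold (Tnnt2), while the representing probe set of Mb fell 3.43-fold. Of the genes that rose, 4 had no overlap between the groups, and so did Mb, where 15.1% of all genes were higher and 15.5% lower without overlap. With the dexamethasone array B28 left out, 5 genes were called higher in place of 8, namely Tnnt2, Myh7, Myl7, Sln and Tnni3. The representing Mb probe set was called lower whichever lung array was left out.

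Among the thick filament genes all 4 rose, where 15.7% of all genes were called higher. Myh7, the slow beta heavy chain of the ventricle before birth and of slow skeletal fibres, had log2 levels of 9.75, 9.59, 10.14 and 9.28 in dexamethasone lungs, against 8.34, 8.55, 8.05 and 8.58 in vehicle lungs. Every treated array lay above every vehicle array, and Myh7 rose 2.48-fold (log2 change 1.31 ± 0.22, limma adjusted p = 0.0002). Myh6, the alpha heavy chain of the atria and of the mouse heart after birth, had 10.21, 9.71, 8.98 and 9.60 in dexamethasone lungs, against 8.94, 9.13, 9.05 and 8.82 in vehicle lungs. Array B40 fell among the vehicle arrays, and Myh6 rose 1.56-fold (log2 change 0.64 ± 0.19, limma adjusted p = 0.0179). That limma call was lost without B28 (adjusted p = 0.0628) or B22 (0.0523), on the lung arrays alone (0.0535) and with probe sets averaged (0.0701), where the change was 0.36 because the other Myh6 probe set was near the floor in every group. A probe set that Myh6 and Myh7 share read 9.38, 8.98, 9.04 and 8.84 in dexamethasone lungs, against 8.01, 8.24, 7.73 and 8.17 in vehicle lungs, and rose 2.04-fold (limma adjusted p = 0.000262 over 45037 probe sets, of which 10.7% were called higher). The other shared probe set lay near the floor, at 4.29 in dexamethasone lungs and 4.07 in vehicle lungs, with overlapping arrays.

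The atrial light chains rose as well. Myl7 had 11.98, 11.50, 11.44 and 10.98 in dexamethasone lungs, against 10.31, 10.47, 10.16 and 10.65 in vehicle lungs. The groups did not overlap, and Myl7 rose 2.11-fold (log2 change 1.08 ± 0.19, limma adjusted p = 0.000303). Myl4, the atrial essential light chain, which the fetal ventricle and fetal skeletal muscle also use, had 10.60, 10.26, 10.37 and 9.44 in dexamethasone lungs, against 9.46, 9.19, 9.29 and 9.56 in vehicle lungs. Array B46 lay inside the vehicle range, and Myl4 rose 1.73-fold (log2 change 0.79 ± 0.25, limma adjusted p = 0.0251). The limma call for Myl4 was lost without B28, B31, B40, B14 or B19 (adjusted p 0.0538 to 0.0826) and with probe sets averaged (log2 change 0.34, adjusted p = 0.0863). Its second probe set was near the floor in all groups.

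Tnnt2 had the largest rise of the 10 genes. It read 11.06, 10.39, 10.27 and 10.28 in dexamethasone lungs, against 8.59, 8.56, 8.31 and 8.57 in vehicle lungs, a 3.98-fold rise (log2 change 1.99 ± 0.20, limma adjusted p = 1.69e-06). The lowest treated array was above the highest vehicle array by more than the whole range of the vehicle group, and all 3 probe sets of Tnnt2 were called higher, with log2 changes of 1.99, 1.88 and 0.42. Tnni3, the inhibitory troponin subunit of adult heart, had 9.63, 9.14, 8.94 and 8.33 in dexamethasone lungs, against 7.98, 8.09, 7.998 and 8.40 in vehicle lungs. Only B46 lay inside the vehicle range, and Tnni3 rose 1.86-fold (log2 change 0.89 ± 0.19, limma adjusted p = 0.00181). Actc1, the cardiac alpha actin, had 11.60, 11.01, 10.53 and 10.29 in dexamethasone lungs, against 10.21, 10.16, 9.89 and 10.39 in vehicle lungs. The lowest treated array, B46, lay inside the vehicle range. Actc1 rose 1.62-fold (log2 change 0.70 ± 0.22, limma adjusted p = 0.0239), a call lost without B28 (log2 change 0.45, adjusted p = 0.0779), B31 (0.0581) or B19 (0.0717) and on the lung arrays alone (0.0659).

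The remaining members took different directions. Sln, sarcolipin, a small membrane protein that inhibits the calcium pump of the sarcoplasmic reticulum and marks atrial muscle in the mouse heart, had 9.42, 9.08, 8.60 and 8.61 in dexamethasone lungs, against 7.99, 7.69, 7.67 and 8.18 in vehicle lungs. The groups did not overlap, and Sln rose 2.06-fold (log2 change 1.04 ± 0.17, limma adjusted p = 0.000156). Its second probe set was near the floor in all groups, and with both averaged the change was 0.57, still called. Mb, myoglobin, which stores oxygen in heart and slow skeletal muscle, had 5.78, 6.17, 5.68 and 5.16 in dexamethasone lungs, against 7.16, 7.56, 7.49 and 7.68 in vehicle lungs. The highest treated array lay below the lowest vehicle array, and this probe set fell 3.43-fold (log2 change -1.78 ± 0.20, limma adjusted p = 3.93e-06). The dexamethasone lungs were still higher in Mb than the dexamethasone cerebella, at 5.70 ± 0.42 and 5.13 ± 0.37 (SD, n = 4 each; limma adjusted p = 0.0176), though the arrays overlapped and the call was lost in 4 alternatives. The second Mb probe set did not follow, and no direction is drawn here for the gene. It read 5.74, 5.76, 5.76 and 5.93 in dexamethasone lungs, against 5.47, 5.59, 5.53 and 5.48 in vehicle lungs (log2 change 0.28 ± 0.10, limma adjusted p = 0.0553). Its groups did not overlap either, with the dexamethasone lungs higher. The first probe set had the higher mean over all arrays through the vehicle lungs alone, at 7.47 against 5.52 for the second, while the second was the brighter in the other 3 groups. With both averaged the change was -0.75, called lower. Nppa, atrial natriuretic peptide, the main hormone of the atria, averaged 4.50 ± 0.17 in dexamethasone lungs and 4.61 ± 0.13 in vehicle lungs (SD, n = 4 each; log2 change -0.11 ± 0.11, limma adjusted p = 0.495). It is read by a single probe set, which lay near the floor in every array, so these arrays do not measure its RNA in lung.

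**Figure D2:**
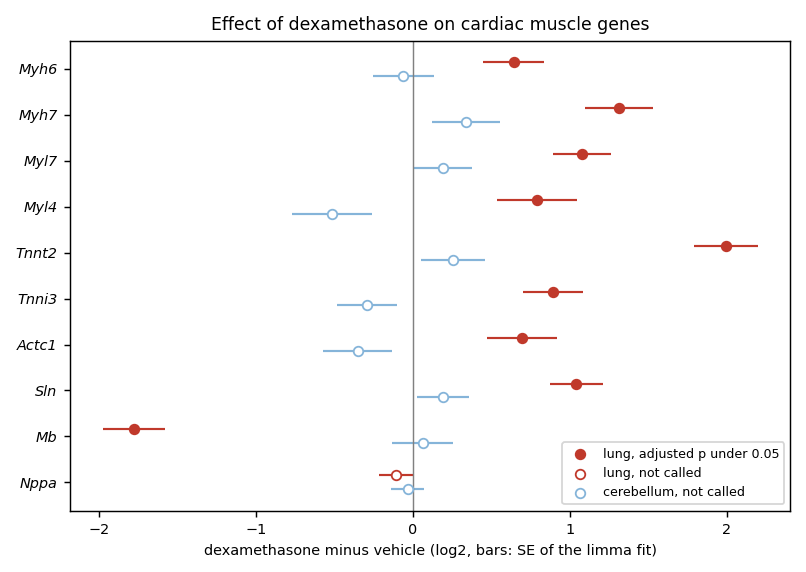
Log2 difference of dexamethasone minus vehicle (horizontal axis) for each of the 10 genes in lung (red) and cerebellum (blue), with bars for the moderated standard error; filled points are called at an adjusted p under 0.05. In lung 8 points lie right of 0 and the representing probe set of Mb lies at -1.78, while the cerebellar points run from -0.51 to 0.34 and none is called.

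In 3 pairs of the members, chosen after the values were known, the difference between the 2 genes was taken in each lung array. Such a difference removes any factor that scales both alike. Tnnt2 minus Tnni3 was 1.43, 1.26, 1.33 and 1.95 in dexamethasone lungs, against 0.61, 0.47, 0.31 and 0.17 in vehicle lungs, a shift of 1.10 without overlap (2-sided exact permutation p = 0.0286, the smallest that 4 against 4 arrays can give; adjusted over 3 pairs 0.0857). Myh7 minus Myh6 averaged 0.06 ± 0.75 in dexamethasone lungs and -0.61 ± 0.31 in vehicle lungs (SD, n = 4 each; exact permutation p = 0.0857, adjusted 0.129), and a single array, B40 at 1.17, stood apart. Myl7 minus Myl4 shifted by 0.28 (exact permutation p = 0.143, adjusted 0.143). None of the 3 passed after adjustment, but with 4 against 4 arrays a pair that alone reached the smallest p could not pass. As the pairs were picked from these same values, the p values are a description and no conclusion is drawn.

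In cerebellum, 0 of the 10 genes was called between dexamethasone and vehicle by limma, where 2.84% of all genes were higher and 1.97% lower, and 0 had an unadjusted p under 0.05. Log2 changes in the limma fit ran from -0.51 ± 0.25 (Myl4, adjusted p = 0.329) to 0.34 ± 0.22 (Myh7, adjusted p = 0.498). Sln alone had no overlap, with dexamethasone cerebella higher by 0.19, where 7.13% of all genes were higher without overlap. All 10 group means lay below the median of all genes in both cerebellar groups, with the highest at 6.13 ± 0.50 for Myh7 in dexamethasone cerebella, against 5.79 ± 0.16 in vehicle cerebella (SD, n = 4 each). The difference between the organs was itself tested: the lung effect minus the cerebellar effect was called for 8 genes, higher for Myl7, Myl4, Tnnt2, Tnni3, Actc1, Myh7 and Sln and lower for Mb, where 9.85% of all genes were called higher and 11.5% lower. By the representing probe sets it was largest for Mb, at -1.84 ± 0.28, and for Tnnt2, at 1.73 ± 0.29 (limma adjusted p = 0.000207 and 0.000445). The second Mb probe set had 0.25 (limma adjusted p = 0.282 over all probe sets), so no direction is drawn for Mb here either. Because most of these genes lie near the floor in cerebellum, lack of expression there and lack of a response cannot be told apart. For Myl7, Tnnt2, Sln and Mb the term largely restates the lung change. For Myl4, Actc1 and Tnni3 it also holds cerebellar changes of -0.51, -0.35 and -0.29, and for Myh7 one of 0.34, none of them called. Myh6 had 0.70 ± 0.27 (limma adjusted p = 0.0816), and was called without B40 (0.92, limma adjusted p = 0.00726). The call was lost in 8 of 24 alternatives for Myh7 and in 3 each for Myl7 and Actc1, all of them with a single array left out. Outside the 10 genes, 3 genes of the lists described below were called in cerebellum: Mybpc1, a skeletal myosin-binding protein, rose by 2.29 on the log2 scale, Gabra6, a receptor subunit of granule neurons, rose by 1.23, and Art3 fell by 0.55, a call lost in 8 alternatives. Without the vehicle lung array B19, 4 of the 10 genes had a called higher interaction in place of 7, with Myl7, Actc1 and Myh7 lost.

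The lung arrays of a group also differed among themselves. In dexamethasone lungs the SD of the 9 genes other than Nppa ran from 0.36 (Myh7) to 0.58 (Actc1), and in vehicle lungs from 0.13 (Myh6 and Tnnt2) to 0.24 (Myh7 and Sln), while the median gene had 0.188 and 0.148. B28 held the highest value of 7 of the 10 genes among the dexamethasone lungs and B46 the lowest of 6. Averaged over the 10 genes, B28 lay 0.40 above its group mean and B46 0.40 below it, with B31 at 0.12 and B40 at -0.11. Among the vehicle lungs B22 held the highest value of 8 genes and lay 0.17 above its group mean, and B19 held the lowest of 5 and lay 0.13 below. B46 also correlated least with the arrays of its group, at r = 0.980, where the other 3 had 0.987 to 0.989, and had the lowest array weight of all 16, 0.264.

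**Figure D3:**
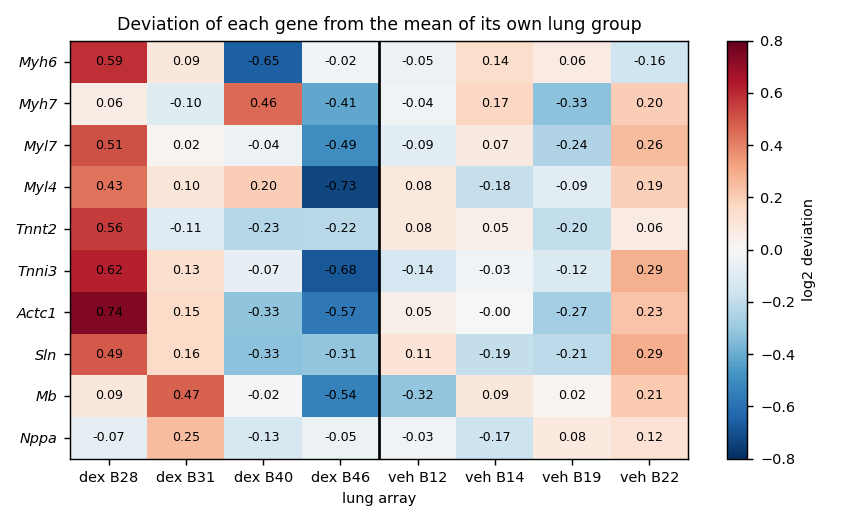
Deviation of each of the 10 genes (rows) from the mean of its own lung group (log2, colour and printed value) in the 8 lung arrays (columns), with dexamethasone arrays left of the line and vehicle arrays right of it. B28 is above its group mean in 9 genes and B46 is below it in all 10, whereas Myh6 and Myh7 go opposite ways in B40, at -0.65 and 0.46.

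Over the 8 lung arrays, the deviations of each gene from its group mean were compared with those of the mean of the 10. Tnni3, Actc1 and Myl7 had Pearson r of 0.98, 0.98 and 0.97 with that mean, of which each is a part, and Myh7 and Nppa had 0.43 and 0.20. Among 11567 other genes with a mean of 6 or more in lung, the 8 most alike were Exoc3, Mall, Mmgt2, Ephb6, Leng9, Sec22b, Cdk4 and Gprasp1, with r from 0.977 to 0.997. None of these 8 is in the muscle lists used here, and 1% of the 11567 genes had r above 0.91. With 8 arrays such values are a description and carry no test.

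Other genes of the contractile apparatus of heart rose beside the members. Of 20 sarcomere and Z disc genes, 12 rose and 1 fell in lung, where 15.7% of all genes were called higher, with a median log2 change of 0.73. Tcap, which caps titin at the Z disc, rose 2.99-fold, Myoz2, a calcineurin-binding Z disc protein, 2.86-fold, Lmod2, which sets the length of thin filaments, 2.09-fold, and Csrp3, a Z disc LIM protein, 1.98-fold. Lmod2 lay near the floor in vehicle lungs, at 4.31 to 4.74, so its fold is uncertain. Nexn, an actin-binding protein, fell by 0.53 on the log2 scale, and that call was lost without B46, B19 or B22. Of 10 muscle energy genes, 8 rose, with a median of 1.07. Cox6a2, the muscle subunit of cytochrome oxidase, rose 4.22-fold, the mitochondrial creatine kinase Ckmt2 3.62-fold, the fatty acid carrier Fabp3 2.51-fold and the cytosolic creatine kinase Ckm 1.995-fold. Ckmt2 lay near the floor in vehicle lungs as well, at 4.20 to 4.77, so its fold is uncertain. Cerebellum expresses Fabp3 too: in vehicle mice it averaged 8.56 in lung and 10.67 in cerebellum.

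Of 11 calcium handling genes, 5 rose and 2 fell, where 15.7% of all genes were called higher and 15.5% lower. Pln, phospholamban, which restrains the calcium pump of heart, rose 2.77-fold, S100a1, a calcium sensor of heart muscle, 2.43-fold, and Casq2, the calcium store protein of heart, 1.87-fold. The calcium channel Cacna1c, which smooth muscle also uses, fell by 1.13 on the log2 scale, and the sodium-calcium exchanger Slc8a1 fell by 1.69, or by 0.55 with probe sets averaged. Cerebellum also expresses S100a1, at 9.07 in vehicle cerebella, and Slc8a1. Among 15 transcription factors of heart, 1 rose and 3 fell, a share of calls near the 31.2% of all genes. Myocd and Mef2c, which smooth muscle and endothelium also express, fell by 1.62 and 1.63, and Srf by 0.50. Tbx20 rose 1.52-fold from near the floor, at 4.21 to 5.06 in vehicle lungs, so its fold is uncertain. Its call was lost without B31 or B22, on the lung arrays alone and with probe sets averaged. Srf was lost without B22, on the lung arrays alone and with probe sets averaged. The heart factor Nkx2-5 had 5.88 ± 0.36 in dexamethasone lungs and 5.63 ± 0.14 in vehicle lungs (SD, n = 4 each), and was not called.

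**Figure D4:**
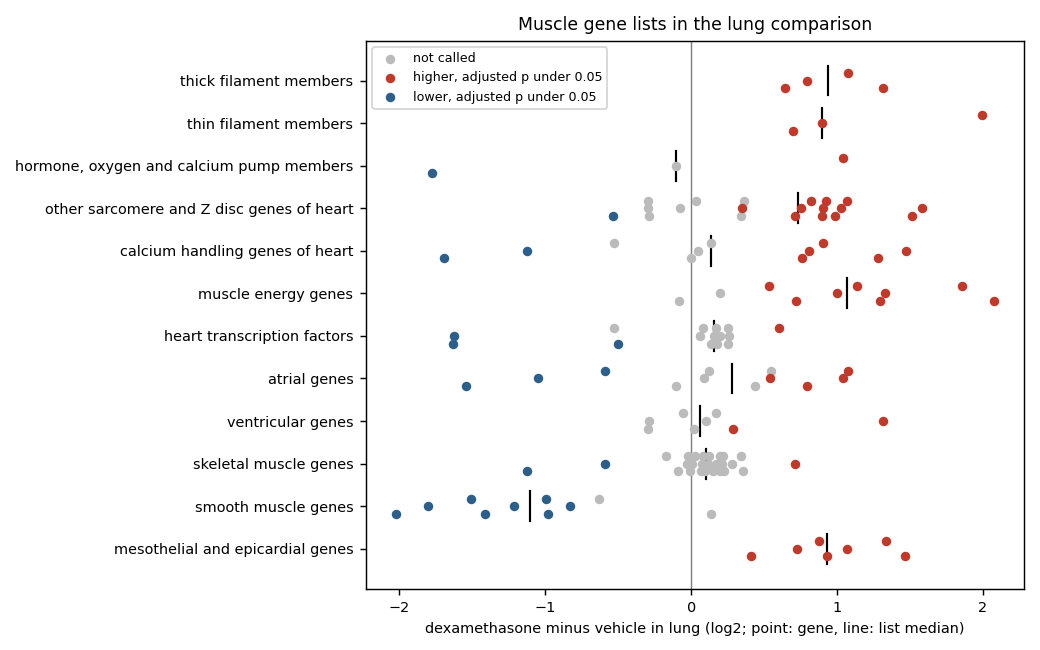
Log2 difference of dexamethasone minus vehicle in lung (horizontal axis) for every measured gene of 12 lists (rows); points are genes, coloured by the limma call, and black lines are list medians. Heart sarcomere and muscle energy genes lie mostly right of 0, and 8 of 10 smooth muscle genes are called lower. Of the 26 skeletal muscle genes 23 are not called, and all 26 had group means below the median of all genes in both lung groups.

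Genes of other muscle were read as well, where 15.7% of all genes were called higher in lung and 15.5% lower. All 26 skeletal muscle genes had group means below the median of all genes in both lung groups, and the mean over the list ran from 4.75 to 4.89 in dexamethasone lungs and from 4.69 to 4.83 in vehicle lungs. Of these 26 genes, 1 rose and 2 fell: Myl1, a skeletal light chain, rose 1.64-fold, and Tnnt1, the slow skeletal troponin T, and Casq1, the skeletal calcium store protein, fell by 1.13 and 0.59 on the log2 scale. Casq1 was lost without B40, B19 or B22. Myl1 lay near the floor in vehicle lungs, at 4.38 to 4.65, so its fold is uncertain. Since these 26 genes lay low, where RMA compresses differences, the lack of calls says little about skeletal muscle. Of 12 atrial genes, which include Myl7, Myl4, Sln and Nppa, 4 rose and 3 fell, and without B28 2 rose. The potassium channel Kcnj5 rose 1.45-fold, a call lost without B28 or on the lung arrays alone. Its values in vehicle lungs lay near the floor, at 4.44 to 4.64, so its fold is uncertain. Nr2f1, Dkk3 and Nr2f2, which many other lung cells express, fell by 1.54, 1.05 and 0.59. The ventricular light chain Myl2 lay near the floor, at 4.43 ± 0.23 in dexamethasone lungs and 4.73 ± 0.19 in vehicle lungs (SD, n = 4 each), and the light chain Myl3 averaged 6.68 ± 0.20 in dexamethasone lungs and 6.97 ± 0.16 in vehicle lungs. Neither was called, but Myl3 was called lower in 5 alternatives: with probe sets averaged (by 0.99), with dim genes left out, and without B28, B31 or B12, and Myl2 was called lower after either repeat normalization and with array weights. Besides Myh7, 1 of 8 ventricular genes rose, the gap junction protein Gja1 at 1.22-fold, which many cell types express, and its call was lost in 10 of 17 alternatives.

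Markers of other tissues were set beside the cardiac genes, where 15.7% of all genes were called higher in lung and 15.5% lower. Smooth muscle genes went the other way: 8 of 10 fell, the list's median was -1.10 on the log2 scale, and the mean over the list ran from 8.26 to 9.11 in dexamethasone lungs and from 9.79 to 10.02 in vehicle lungs. Synpo2, Actg2, Smtn and Des of that list fell by 2.02, 1.80, 1.41 and 0.996. Synpo2 and Des are not particular to smooth muscle, as striated muscle, heart included, has them too. Genes of mesothelium, which covers lung and heart alike, rose in 7 of 7, with a median of 0.93, and the mean over the list ran from 8.67 to 9.06 in dexamethasone lungs and from 7.69 to 8.13 in vehicle lungs. Msln, mesothelin, rose 2.77-fold, Lrrn4 2.52-fold, Gpm6a 2.09-fold and the mucin Muc16 1.83-fold. Of 7 lung epithelial genes, 3 rose, Sftpb, Nkx2-1 and Foxj1, by 1.60-fold, 1.45-fold and 1.58-fold, and Sftpb alone was called under all 17 alternatives. In 7 thymus, 5 liver and 6 cerebellar neuron genes, 0 was called by limma in lung, and 0 had an unadjusted p under 0.05. All of these genes had group means below the median of all genes in both lung groups. Since RMA compresses differences near the floor, the lack of calls says little about these tissues. Some alternatives called 1 of these genes, such as Cd8a, Ttr or Cbln1. The part of mesothelium or of smooth muscle in the change of the cardiac genes was not tested.

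A measure of RNA quality and one of sex also moved with treatment in lung. The Gapdh control probe sets, where a larger gap between the 3′ and 5′ ends goes with more degraded RNA, gave log2 gaps of 0.446 to 0.708 in dexamethasone lungs, against 0.84 to 1.044 in vehicle lungs. The actin control gave 0.451 to 0.642 in dexamethasone lungs, against 0.611 to 0.667 in vehicle lungs, with overlap. The Gapdh ranges do not overlap, so this gap cannot be told apart from treatment. Xist, which is transcribed in females, was above 9 in 3 of 4 dexamethasone lungs and 1 of 4 vehicle lungs. With its level as a covariate all 8 genes that rose and Mb were still called. The array numbers lie in separate ranges in the 2 lung groups, so litter or collection order cannot be told apart from treatment if the numbers follow them.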

How the data were processed

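The deposited table held log2 values, made by the authors from Affymetrix mouse arrays with RMA, per the submitters' processing notes (version not given in the sources used here). It had 45101 probe sets and 16 arrays, all of which were used. Array number limits the precision. Probe sets with 1 gene symbol were taken, the one with the highest mean stood for its gene, and 18193 genes were tested with limma 3.58.1 in R 4.3.3 as 4 groups of 4, with Benjamini-Hochberg adjustment and a threshold of 0.05. The fit was tested on simulated data.

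The members and lists were chosen with earlier results of these data known. Beyond the 10 members, each list names up to 4 genes called in an organ by smallest adjusted p, or the 2 highest in lung where none was called. Nexn, Slc8a1, Kcnj5, Nr2f2, Nkx2-5, Myl2 and Myl3 were named after their values were seen. Alternatives were probe sets averaged or adjusted separately, dim genes left out, quantile or cyclic loess normalization, the compared arrays alone, variance trend, array weights, Xist as covariate, and each array left out.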

Additional observations from a re-analysis of the deposited data

Results flagged for a closer look

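In the dexamethasone lungs the Tnnt2 level of B28, 11.06, stood apart from the other 3 arrays, of which the nearest was 10.39. In the vehicle lungs the Tnnt2 level of B19, 8.31, stood below the other 3, of which the nearest was 8.56. These were 2 of 40 groups of 4 arrays, and chance marks about 1 in 20. The lung effect of dexamethasone minus its cerebellar effect was called for 8 genes by the limma interaction term. On the log2 scale it was 0.88 for Myl7, 1.305 for Myl4, 1.73 for Tnnt2, 1.19 for Tnni3, 1.05 for Actc1, 0.97 for Myh7, 0.85 for Sln and -1.84 for Mb. Most of these genes lie near the floor in cerebellum, so lack of expression and lack of a response there cannot be told apart. The value for Mb is that of 1 of its 2 probe sets.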

How the results depend on the processing

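With single arrays left out, 5 to 8 of the 10 genes were called higher in lung and 4 to 7 had a called higher interaction, lowest without B28 and without B19. Of 169 lung results for single genes under the alternatives, 155 kept their direction and side of the threshold and 14 lost the call, all for Myh6, Myl4 or Actc1. The cause was not tested. Changes with no call changed sign. The cerebellar change of Myh6 was 0.022 with probe sets averaged, 0.034 with array weights and -0.15 to 0.046 with single arrays left out. With single arrays left out that of Nppa was -0.085 to 0.046 and that of Mb -0.091 to 0.19. The difference of Nppa between dexamethasone lungs and cerebella was -0.068 after quantile and -0.072 after cyclic loess normalization, and -0.066 to 0.058 with single arrays left out. Array weights gave 1699 called genes in cerebellum against 874. With probe sets averaged, changes of genes called in lung moved by over 1.5 times but stayed called for Pln (0.76), Fabp3 (0.74), Ckm (0.495), Myocd (-0.83), Synpo2 (-0.86), Des (-0.49), Kcnj5 (0.28), Slc8a1 (-0.55), Sln (0.57) and Mb (-0.75). Nppa failed the filter on dim genes. No paired analysis was possible because the groups share no replicate number.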
